A study of Mus musculus with 6 samples.

Results

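Of the 42632 open-chromatin peaks measured by ATAC-seq in mouse long-term haematopoietic stem cells (LT-HSCs), 174 (0.408%) lay closest to a gene of 7 large families whose copies stand in rows along the chromosomes. ATAC-seq cuts and tags accessible DNA with a transposase, so the number of reads over a peak follows how open that stretch of chromatin is. A peak was taken when its midpoint was closer to an end of an Olfr, Vmn1r, Vmn2r, Pramel, Mup, Speer or Skint gene than to that of any other protein-coding gene, and within 200 kb of it. The 174 peaks were 85 at Olfr genes, 25 at Vmn1r, 21 at Pramel, 19 at Mup, 18 at Vmn2r, 5 at Speer and 1 at Skint. The families were chosen with their summed counts in both groups of the study known, so every value that sets these groups against each other is given as a description. Calls from fits over all peaks are also given, but nothing is read from them about the members.

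Confined LT-HSCs (n = 3 libraries) were incubated for 13 h, attached for 0.5 h to glass coated with fibronectin, held for 2 h under a pillared coverslip that left a height of 5 µm, and lifted off with a dissociation reagent. Unconfined LT-HSCs (n = 3) were incubated for 16 h. Attachment and detachment went together with confinement in every library, so the steps cannot be told apart. The cells of both groups were bone marrow cells of 10 to 16 week old C57BL/6 mice, were sorted as Lin- Sca1+ cKit+ CD34- Flt3-, and were kept in HBSS with 10% serum at 3% O2. The labels number the libraries of each group 1 to 3 by experimental batch and call them biological replicates, without saying whether each came from a separate animal.

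Olfr genes encode the odorant receptors of the olfactory epithelium, and Vmn1r and Vmn2r genes encode pheromone receptors of the vomeronasal organ. A sensory neuron transcribes few of these receptors and keeps the other copies in repressed chromatin, and blood cells are not known for transcribing them. The other families are not receptors of this kind: Mup genes encode the major urinary proteins, lipocalins made in the liver that carry pheromones, Pramel genes encode leucine-rich repeat proteins expressed in germ cells and early embryos, Speer genes are expressed in the testis, and Skint genes encode immunoglobulin-family proteins of the thymus and skin. The word receptor therefore fits the Olfr, Vmn1r and Vmn2r peaks, and the whole group is better described as peaks at tandem gene families. In bulk ATAC-seq, more cells with an open site and a more open site in each cell cannot be told apart.

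Several of these families hold near-identical copies, and how alike the copies are at their promoters varies widely. The RefSeq promoter windows (GRCm38.p6, the assembly also called mm10, from 250 bases before to 50 bases after the gene start, 5′ to 3′ on the gene's strand) of 4 pairs of copies from the same clusters are printed to show this range. In the second copy of each pair, capitals mark bases that differ from the first copy or are absent from it. Vmn1r101 (chr7:20442544-20442843, minus strand) and Vmn1r243 (chr7:20334016-20334315, minus strand) are 99.0% identical.
Vmn1r101: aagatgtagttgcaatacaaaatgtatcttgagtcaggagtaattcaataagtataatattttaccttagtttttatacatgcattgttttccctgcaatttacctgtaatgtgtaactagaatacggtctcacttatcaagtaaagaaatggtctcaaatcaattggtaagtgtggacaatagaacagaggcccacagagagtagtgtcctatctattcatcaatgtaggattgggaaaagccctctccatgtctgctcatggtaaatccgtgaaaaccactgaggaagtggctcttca
Vmn1r243: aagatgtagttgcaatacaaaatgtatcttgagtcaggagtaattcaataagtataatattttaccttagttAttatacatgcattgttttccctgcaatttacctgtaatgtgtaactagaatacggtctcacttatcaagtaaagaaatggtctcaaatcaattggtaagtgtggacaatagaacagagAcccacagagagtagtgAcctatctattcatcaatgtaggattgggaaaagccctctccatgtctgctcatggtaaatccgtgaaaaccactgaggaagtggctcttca

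Vmn2r114 (chr17:23312264-23312563, minus strand) and Vmn2r115 (chr17:23343727-23344026, plus strand) lie on opposite strands and are 99.3% identical over their windows.
Vmn2r114: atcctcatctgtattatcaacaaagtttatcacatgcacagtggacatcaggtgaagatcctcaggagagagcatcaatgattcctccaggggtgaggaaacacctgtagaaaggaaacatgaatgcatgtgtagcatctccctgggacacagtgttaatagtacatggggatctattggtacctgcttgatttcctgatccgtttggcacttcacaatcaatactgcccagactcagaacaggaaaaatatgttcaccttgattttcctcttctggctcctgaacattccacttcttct
Vmn2r115: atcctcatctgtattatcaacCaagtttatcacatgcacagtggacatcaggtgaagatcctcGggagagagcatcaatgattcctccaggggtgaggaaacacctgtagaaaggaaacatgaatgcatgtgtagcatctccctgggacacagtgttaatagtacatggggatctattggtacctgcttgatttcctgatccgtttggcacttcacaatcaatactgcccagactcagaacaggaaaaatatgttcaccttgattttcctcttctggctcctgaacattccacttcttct

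Mup15 (chr4:61439655-61439954, minus strand) and Mup17 (chr4:61595783-61596082, minus strand) are 98.0% identical, with the difference mostly in the length of a run of A.
Mup15: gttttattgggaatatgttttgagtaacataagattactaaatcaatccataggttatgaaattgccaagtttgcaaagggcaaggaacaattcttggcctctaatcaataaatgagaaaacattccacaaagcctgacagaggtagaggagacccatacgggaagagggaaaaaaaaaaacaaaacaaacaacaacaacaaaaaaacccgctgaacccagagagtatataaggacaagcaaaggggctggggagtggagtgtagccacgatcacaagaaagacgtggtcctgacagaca
Mup17: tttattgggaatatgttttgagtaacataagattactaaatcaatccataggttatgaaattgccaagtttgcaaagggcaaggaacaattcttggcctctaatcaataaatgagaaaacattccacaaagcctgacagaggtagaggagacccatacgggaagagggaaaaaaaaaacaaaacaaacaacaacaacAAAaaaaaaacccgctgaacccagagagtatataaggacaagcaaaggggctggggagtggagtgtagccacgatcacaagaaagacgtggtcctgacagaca

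Olfr1511 (chr14:52390722-52391021, minus strand) and Olfr1510 (chr14:52410878-52411177, minus strand) also stand in one cluster, but the identity of their windows is 48.4%. Both carry a member peak that overlaps the window.
Olfr1511: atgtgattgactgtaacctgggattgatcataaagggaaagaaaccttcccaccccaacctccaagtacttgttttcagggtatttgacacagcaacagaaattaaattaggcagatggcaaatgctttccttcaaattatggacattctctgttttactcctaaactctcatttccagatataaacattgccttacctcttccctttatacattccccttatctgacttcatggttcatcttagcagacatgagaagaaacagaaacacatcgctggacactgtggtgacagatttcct
Olfr1510: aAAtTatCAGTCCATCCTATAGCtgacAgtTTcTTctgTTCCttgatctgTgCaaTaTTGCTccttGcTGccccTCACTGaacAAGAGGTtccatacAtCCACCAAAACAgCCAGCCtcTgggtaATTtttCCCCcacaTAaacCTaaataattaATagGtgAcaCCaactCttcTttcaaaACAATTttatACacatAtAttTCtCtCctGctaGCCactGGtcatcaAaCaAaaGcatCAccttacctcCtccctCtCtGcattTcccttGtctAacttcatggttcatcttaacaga

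Peaks were sparse in these families. Of 1557 protein-coding family genes in the annotation, 107 (6.87%) were the nearest gene of at least 1 peak, against 73.3% of the 20074 other protein-coding genes. The stretches of genome that lie nearest to a family gene span 61.6 Mb and held 2.82 peaks per Mb, against 21.2 per Mb elsewhere. Density differed among the families: it was 8.51 peaks per Mb at Mup genes and 8.19 at Pramel genes, 3.16 at Speer, 2.82 at Olfr, 2.50 at Vmn1r, 1.40 at Vmn2r and 0.452 at Skint genes. The largest family was the least covered by gene: 52 of 1110 Olfr genes had a peak (4.68%), whereas 12 of 24 Mup genes had one.

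The members rarely sat at the genes themselves. Of the 174 peaks, 19 (10.9%) had their midpoint inside the nearest gene, against 54.8% of the other assigned peaks, and 13 (7.47%) were centred at most 1 kb from a gene end, compared with 27.5% of the others. A further 54 lay 1 to 10 kb away, 74 lay 10 to 50 kb away and 33 lay 50 to 200 kb away, and the median distance was 12.04 kb, against 8.29 kb for the others. A promoter window was on record for the nearest gene of 155 members, and 3 of these peaks overlapped it, at Olfr1511, Olfr1510 and Olfr520. With pseudogenes and non-coding genes included, 112 of the 174 peaks still had a family gene as their nearest gene, 37 were nearest to a pseudogene and 35 to a long non-coding RNA, with some pseudogenes counted as family members by their symbol.

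The loss of family genes under this wider annotation was mostly among the odorant receptors, where 41 of 85 peaks kept an Olfr gene as the nearest. The single gene with most members was Olfr1324 on chromosome X, with 22 peaks between positions 50443033 and 50623486. For 19 of these 22 the nearest gene of any kind was Firre, which makes a nuclear non-coding RNA and is not part of an odorant receptor cluster. The 3 members farthest from their gene, at 190.676, 193.708 and 196.642 kb, also belonged to this group. They had 7, 6 and 3, then 10, 7 and 6, then 6, 1 and 3 counts in confined libraries 1 to 3, against 7, 23 and 29, then 4, 28 and 27, then 12, 21 and 29 in unconfined libraries 1 to 3. Counts in this paragraph are raw, and the library totals, given below, differ. In the edgeR fit without a filter, also given below, their log2 fold changes, confined over unconfined, were -0.23, 0.34 and -1.03. The 3 family peaks nearest beyond the 200 kb limit, all closest to Speer4b at 247.124, 289.402 and 300.612 kb, had 7, 8 and 2, then 17, 3 and 2, then 11, 1 and 3 counts in confined libraries, against 7, 27 and 8, then 17, 53 and 57, then 11, 25 and 21 in unconfined libraries.

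Among the other families, Pramel47 was nearest to 5 peaks and Pramel44 and Pramel45 to 4 each. Vmn1r243 was nearest to 4, Vmn1r244 to 3 and Vmn1r241 to 2. Mup18 had 4, Mup17 had 3 and Mup13 had 2. Vmn2r115 and Vmn2r27 had 3 each, Speer1 and Speer4a had 2 each, and Olfr225 and Olfr545 had 3 each. Most family genes with a peak therefore had few of them, apart from Olfr1324.

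Depth limited what could be seen at one peak. Total counts in peaks were 340922, 221390 and 128257 in confined libraries 1 to 3, and 304898, 1229478 and 983863 in unconfined libraries 1 to 3. The median member held 7, 7 and 4 counts in confined libraries and 6, 19.5 and 13 in unconfined libraries, and 3, 3 and 13 members had no count in confined libraries, against 1, 0 and 1 in unconfined libraries. The confined and unconfined libraries also differed at peaks outside the members. For peaks within 1 kb of a gene end that are not members, the counts per peak relative to the average peak (the level) were 1.17, 0.90 and 0.91 in confined libraries 1 to 3, and 1.56, 1.46 and 1.63 in unconfined libraries 1 to 3. Among marker genes of LT-HSCs, 6 of 9 had a peak at a gene end, among them Hlf, Procr, Fgd5, Meis1 and Kit. Of 13 markers of other cells, 3 had one, among them Cd79a of B cells and Itga2b of megakaryocytes, and the olfactory and vomeronasal markers Omp, Cnga2 and Trpc2, the liver marker Alb and the T cell marker Cd3e had none. The gene-end peaks had levels of 1.38, 0.77 and 0.66 in confined libraries 1 to 3 and 0.28, 0.35 and 0.52 in unconfined libraries 1 to 3 at Cd79a, and of 2.50, 0.39 and 0.66 in confined libraries and 2.52, 2.12 and 2.95 in unconfined libraries at Itga2b. The part of other cells in the differences given here was not tested.

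Together the 174 peaks took 0.386%, 0.610% and 0.667% of the counts in confined libraries 1 to 3, and 0.364%, 0.308% and 0.272% in unconfined libraries 1 to 3. The exact 95% Clopper-Pearson intervals were 0.365 to 0.407, 0.578 to 0.644 and 0.624 to 0.713 in confined libraries, and 0.343 to 0.386, 0.298 to 0.318 and 0.261 to 0.282 in unconfined libraries. These intervals cover counting error only. Every confined library was above every unconfined library, but confined library 1 and unconfined library 1 had overlapping intervals. The mean share was 0.555% ± 0.149 in confined cells and 0.314% ± 0.046 in unconfined cells (SD, n = 3 each), a difference of 0.240 points. With confined libraries 2 and 3 left out it was 0.0715 points. Within batches 1, 2 and 3, the share in the confined library was 1.06, 1.98 and 2.46 times that in the unconfined library.

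Below, a level is the mean count per peak of a group of peaks divided by the mean count per peak over all 42632 peaks of the same library, so that 1 stands for the average peak. All members together were at 0.95, 1.50 and 1.64 in confined libraries 1 to 3, and at 0.89, 0.75 and 0.67 in unconfined libraries 1 to 3. In unconfined cells these were thus peaks below the average, and in confined libraries 2 and 3 they were above it.

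**Figure D1:**
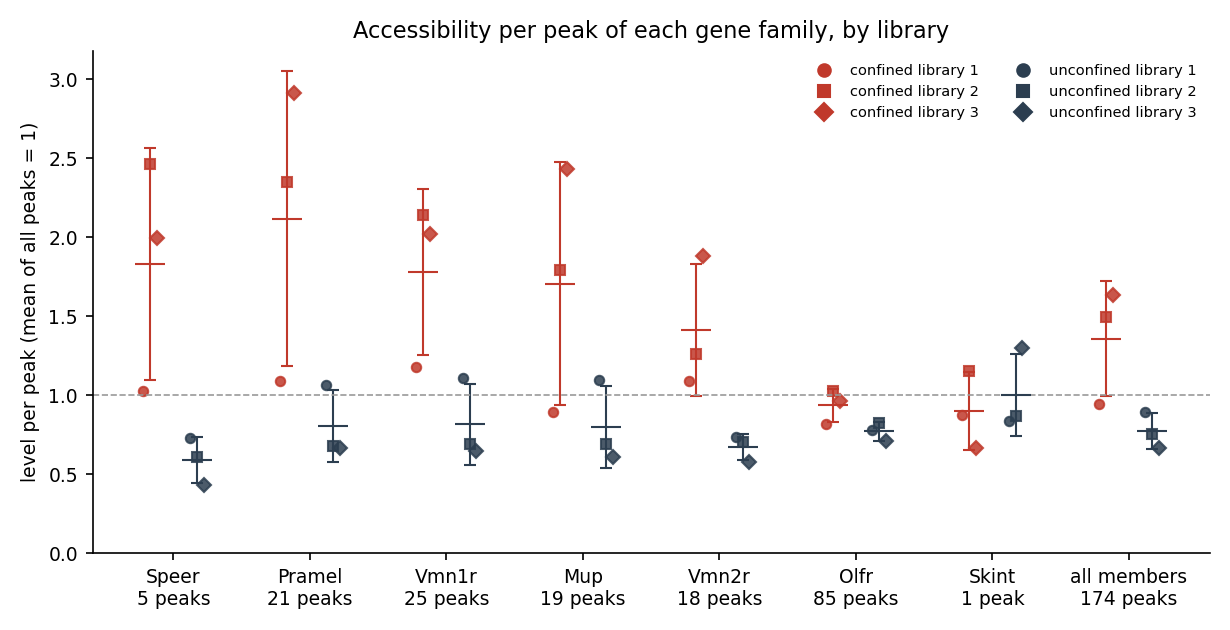
Level per peak (mean of all peaks = 1) for each family, with 1 point per library, confined on the left and unconfined on the right of each pair; long bars are means and whiskers 1 SD (n = 3 each). Confined libraries 2 and 3 lie far above the unconfined libraries at Speer, Pramel, Vmn1r and Mup peaks, while at Olfr peaks all libraries lie between 0.71 and 1.02.

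The families fell into those with a large gap between the groups and the odorant receptors and Skint, where it was small. Pramel peaks had levels of 1.09, 2.35 and 2.91 in confined libraries 1 to 3, and 1.07, 0.68 and 0.67 in unconfined libraries. The groups did not overlap, although the first library of each group differed by little. Their means were 2.12 ± 0.93 in confined cells and 0.80 ± 0.23 in unconfined cells (SD, n = 3 each). Speer peaks were at 1.03, 2.46 and 1.99 in confined libraries and at 0.73, 0.61 and 0.43 in unconfined libraries. With 5 peaks the Speer value rests on 41, 64 and 30 counts in confined libraries, against 26, 88 and 50 in unconfined libraries.

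Among the pheromone receptors, Vmn1r peaks were at 1.18, 2.14 and 2.02 in confined libraries 1 to 3, and at 1.11, 0.69 and 0.64 in unconfined libraries. Vmn2r peaks were at 1.09, 1.26 and 1.88 in confined libraries, and at 0.74, 0.70 and 0.58 in unconfined libraries. Neither family's groups overlapped. In batch 1 the confined level was 1.48 times the unconfined one at Vmn2r peaks and 1.06 times at Vmn1r peaks, beside 1.41 times at Speer and 1.02 times at Pramel peaks. Mup peaks were at 0.90, 1.79 and 2.43 in confined libraries, and at 1.10, 0.69 and 0.61 in unconfined libraries. Here the groups overlapped, since confined library 1 was below unconfined library 1. Without confined library 3, the difference in mean Mup level was 0.55, against 0.91 with it.

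The 85 odorant receptor peaks made up the largest family. Their levels were 0.82, 1.02 and 0.97 in confined libraries 1 to 3, and 0.78, 0.82 and 0.71 in unconfined libraries, with means of 0.94 ± 0.11 in confined cells and 0.77 ± 0.06 in unconfined cells (SD, n = 3 each). The groups overlapped by a small margin, since confined library 1 was just below unconfined library 2. Without the 22 chromosome X peaks they were at 0.80, 1.01 and 0.82 in confined libraries and at 0.68, 0.73 and 0.58 in unconfined libraries. Without those peaks the groups did not overlap, and the ratio of the mean levels was 1.32, against 1.21 with them. The 19 peaks closest to Firre were at 0.90, 1.02 and 1.28 in confined libraries and at 1.12, 1.10 and 1.15 in unconfined libraries, so the groups overlapped. The single Skint peak, inside Skint3, had 7, 6 and 2 counts in confined libraries and 6, 25 and 30 in unconfined libraries, which gave levels of 0.88, 1.16 and 0.66 in confined libraries and of 0.84, 0.87 and 1.30 in unconfined libraries.

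Within a family the level differed between places, some of which held few counts. Peaks of one family less than 1 Mb apart were joined into places, a rule set after the values were seen, and 15 places held 3 or more peaks. The 17 Pramel peaks on chromosome 5 were at 1.16, 2.72 and 3.46 in confined libraries 1 to 3, and at 1.15, 0.66 and 0.69 in unconfined libraries. The 4 Pramel peaks on chromosome 4 were at 0.78, 0.77 and 0.58 in confined libraries, and at 0.70, 0.76 and 0.57 in unconfined libraries. On chromosome 5 the groups did not overlap, if only just in batch 1, and on chromosome 4 they did. The chromosome 4 levels rest on 25, 16 and 7 counts in confined libraries and on 20, 88 and 53 in unconfined libraries.

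The Vmn1r places differed as well. The 18 peaks in one row of copies on chromosome 7 were at 1.24, 2.20 and 2.42 in confined libraries, and at 1.25, 0.67 and 0.64 in unconfined libraries. Confined library 1 was just below unconfined library 1 there, and the other confined libraries were far above all unconfined ones. The 4 peaks at the Vmn1r genes of chromosome 6 were at 0.97, 1.54 and 0.75 in confined libraries, and at 0.98, 0.85 and 0.97 in unconfined libraries. On chromosome 6 the confined libraries lay on both sides of the unconfined ones, with 31, 32 and 9 counts against 28, 98 and 90. Of the Vmn2r places on chromosome 17, one of 6 peaks that includes Vmn2r115 was at 0.96, 1.93 and 2.83 in confined libraries and at 0.82, 0.54 and 0.43 in unconfined libraries. The other, of 3 peaks, was at 0.83, 1.03 and 1.55 in confined libraries and at 0.61, 0.86 and 0.56 in unconfined libraries, where one confined library fell below the highest unconfined one. The 4 Vmn2r peaks on chromosome 6 were at 1.38, 0.72 and 1.33 in confined libraries and at 0.59, 0.75 and 0.56 in unconfined libraries, where confined library 2 lay below unconfined library 2. The 2 peaks at Speer4a were at 1.69, 4.24 and 3.66 in confined libraries and at 1.12, 0.90 and 0.45 in unconfined libraries.

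**Figure D2:**
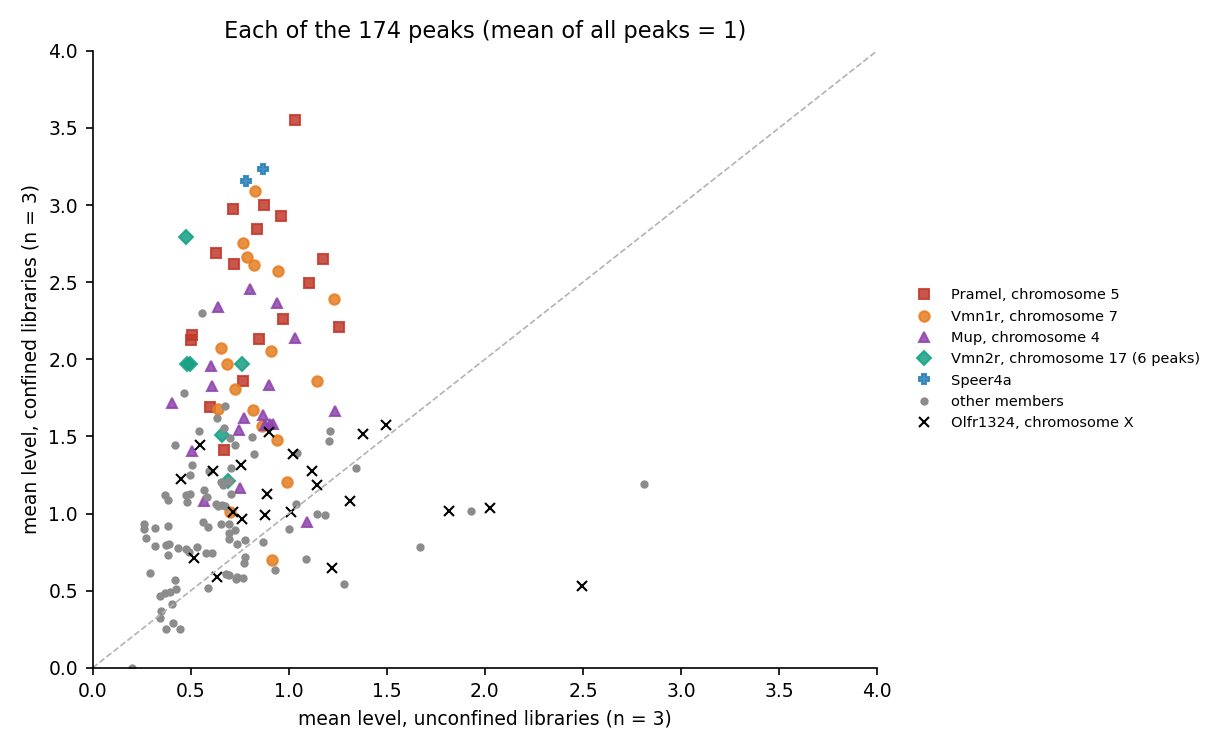
Mean level of each of the 174 peaks over the 3 confined libraries (vertical axis) against its mean over the 3 unconfined libraries (horizontal axis); the dashed line marks equal levels. Most peaks of the Pramel, Vmn1r, Mup, Vmn2r and Speer4a places lie above the line, up to a confined level of 3.55 at unconfined levels of 1.25 or less, while the 22 Olfr1324 peaks lie on both sides of it.

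The direction of the difference was also counted peak by peak. The mean level of confined libraries was above that of unconfined libraries at 141 of the 174 members (81.0%), against 63.0% of all 42632 peaks. It was so at 17 of 17 Pramel peaks on chromosome 5, 17 of 18 Vmn1r peaks on chromosome 7, 18 of 19 Mup peaks and 6 of 6 Vmn2r peaks in the larger chromosome 17 place, against 15 of 22 on chromosome X. All 3 confined libraries were above all 3 unconfined libraries at 54 members (31.0%), against 16.8% of all peaks, and below them at 7 members, against 13.2%. Of the 54, 15 were Vmn1r peaks, 14 Olfr, 10 Pramel, 6 Mup, 6 Vmn2r and 3 Speer peaks. At Olfr peaks the share was 16.5%, near that of all peaks. Since the families were picked by this contrast, nothing is read from these shares.

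In the edgeR fit over all peaks, 38 of the 174 members had enough counts to be tested and 136 did not. Of the 9084 peaks tested in all, 5.79% were called higher and 2.42% lower in confined cells at a Benjamini-Hochberg adjusted threshold of 0.05. Among the members 25 were called higher, of which 10 were Vmn1r, 7 Pramel, 4 Mup, 2 Speer and 2 Vmn2r peaks, and 0 were called lower. At an unadjusted p under 0.05, 29 of the 38 members differed, against 25.1% of all tested peaks. DESeq2 called 22 higher and 0 lower, against 4.99% and 0.848% of all tested peaks. None of the 8 Olfr peaks tested was called. A call in either direction was made at 8.21% of all tested peaks. The filter asks for about 31.0 CPM (counts divided by the library's total and put on one scale) in 3 libraries, and 16 of the 38 tested members passed it through 3 confined and at most 1 unconfined library. All 16 were among the 25 called, and none of the 7 members that reached it in all 3 unconfined libraries was called. The members called higher were 55 of 65 tested without confined library 1, where 16.0% of all tested peaks were called higher, 41 of 90 without unconfined library 1 (3.54%) and 10 of 64 without confined library 2 (1.84%). The median log2 fold change of the 38 was 1.86, beside -0.02 over all tested peaks. With libraries scaled by their totals alone these medians were 1.17 and -0.68, and without the filter they were 0.59 over the 174 members and 0.12 over all peaks. Without the filter 26 members were called higher and 1 lower, against 1.47% and 4.27% of all peaks. As the families were chosen on this contrast, nothing is read from these counts.

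The called peaks with the smallest p show how few counts stand behind them. At Speer4a, 2 peaks lay 1.29 and 4.53 kb from the gene. The first (chr5:26032634-26033333) had 16, 21 and 11 counts in confined libraries 1 to 3, against 9, 25 and 11 in unconfined libraries, or confined levels of 2.00, 4.04 and 3.66 against levels in unconfined libraries of 1.26, 0.87 and 0.48. The second (chr5:26029387-26030086) had 11, 23 and 11 counts in confined libraries, against 7, 27 and 10 in unconfined libraries. At both, raw counts of the groups overlapped, and the gap in level appears once counts are set against each library's total.

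Pramel45 and Pramel44 carried 4 of these peaks, all between the copies. The one 8.56 kb from Pramel45 (chr5:95119370-95120069) had 16, 16 and 9 counts in confined libraries, against 7, 11 and 12 in unconfined libraries, or levels of 2.00, 3.08 and 2.99 against 0.98, 0.38 and 0.52. Another (chr5:95087686-95088385) had 12, 23 and 9 counts in confined libraries, against 6, 14 and 19 in unconfined libraries, and was nearest to a pseudogene when all genes were used. Near Pramel44 the peaks at chr5:94693482-94694181 and chr5:94690664-94691363 had 13, 21 and 15 and then 17, 13 and 10 counts in confined libraries, against 11, 15 and 24 and then 15, 26 and 12 in unconfined libraries. Both lay over 60 kb from Pramel44, with the pseudogene Gm6205 closer.

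The Vmn1r row gave the other 4. The peak 10.93 kb from Vmn1r100 (chr7:20406665-20407364) had 16, 17 and 9 counts in confined libraries, against 6, 22 and 16 in unconfined libraries, or levels of 2.00, 3.27 and 2.99 against 0.84, 0.76 and 0.69. That near Vmn1r245 (chr7:20539583-20540282) had 12, 11 and 17 counts in confined libraries, against 8, 17 and 18 in unconfined libraries. The peaks near Vmn1r244 (chr7:20368321-20369020) and Vmn1r93 (chr7:20150660-20151359) had 15, 12 and 11 and then 9, 17 and 10 counts in confined libraries, against 7, 28 and 12 and then 12, 17 and 13 in unconfined libraries. At 3 of these 4 peaks the lowest confined level was above the highest unconfined one, and at Vmn1r93 confined library 1 (1.13) was below unconfined library 1 (1.68). Over all peaks the share without overlap in that direction was 16.8%. The 4 peaks were picked by their p in this contrast, so nothing is read from the count.

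Other peaks with a high mean count showed the same spread within families. Near Pramel40 (chr5:94343077-94343776) the counts were 8, 18 and 13 in confined libraries, against 8, 31 and 16 in unconfined libraries, or confined levels of 1.00, 3.47 and 4.32 against unconfined levels of 1.12, 1.07 and 0.69. Confined library 1 lay among the unconfined libraries. The peak 57.23 kb from Pramel45 (chr5:95050875-95051574) had 7, 18 and 14 counts in confined libraries, against 6, 25 and 21 in unconfined libraries, or confined levels of 0.88, 3.47 and 4.65 against unconfined levels of 0.84, 0.87 and 0.91. Here too confined library 1 lay among the unconfined libraries. The peak near Vmn1r241 (chr7:20199537-20200236) had 8, 20 and 7 counts in confined libraries, against 18, 15 and 15 in unconfined libraries, with the highest unconfined level (2.52) between confined libraries 2 and 3 (3.85 and 2.33). Near the Mup genes, the peak 1.82 kb from Mup17 (chr4:61589762-61590461) had 9, 10 and 13 counts in confined libraries, against 9, 18 and 12 in unconfined libraries, and that 49.05 kb from Mup18 (chr4:61722831-61723530) had 12, 10 and 9, against 11, 20 and 20 in unconfined libraries. At both, confined library 1 was below unconfined library 1 in level.

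Among the Vmn2r peaks, the one nearest to Vmn2r-ps130 (chr17:23115695-23116394) had 8, 9 and 17 counts in confined libraries, against 4, 15 and 8 in unconfined libraries, or confined levels of 1.00, 1.73 and 5.65 against unconfined levels of 0.56, 0.52 and 0.35. All confined libraries were above all unconfined ones, and confined library 3 was far above the other two. The peak near Vmn2r115 (chr17:23330443-23331142) had 9, 11 and 8 counts in confined libraries, against 10, 18 and 6 in unconfined libraries. The peak inside Vmn2r27 (chr6:124201986-124202685) had 17, 6 and 4 counts in confined libraries, against 8, 41 and 25 in unconfined libraries, and its levels overlapped between the groups. The peak near Speer1 (chr5:11335712-11336411) had 6, 5 and 5 counts in confined libraries, against 3, 17 and 11 in unconfined libraries, or confined levels of 0.75, 0.96 and 1.66 against unconfined levels of 0.42, 0.59 and 0.48.

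Members at gene ends were mostly odorant receptor peaks with few counts. Of the 10 nearest to a gene end, 8 were at Olfr genes. The peak over Olfr1511 had 8, 6 and 7 counts in confined libraries, against 5, 29 and 17 in unconfined libraries, and that over Olfr1510 had 6, 9 and 6, against 6, 24 and 10. Confined levels were 1.00, 1.16 and 2.33 against unconfined levels of 0.70, 1.01 and 0.74 at Olfr1511, and confined levels were 0.75, 1.73 and 1.99 against unconfined levels of 0.84, 0.83 and 0.43 at Olfr1510, so the groups overlapped at both, at Olfr1511 only by the margin between confined library 1 and unconfined library 2. Olfr520, upstream of its gene, had 6, 9 and 2 counts in confined libraries, against 2, 26 and 17 in unconfined libraries. Olfr1509, Olfr658, Olfr544, Olfr91 and Olfr420 had 1 to 10 counts in each confined library and 2 to 27 in each unconfined library. In level, the groups overlapped at Olfr1509, Olfr544 and Olfr91. At Olfr658 the confined levels of 0.88, 0.96 and 1.00 were all above the unconfined levels of 0.56, 0.83 and 0.30. At Olfr420 the confined levels of 1.00, 0.77 and 1.00 were all above the unconfined levels of 0.28, 0.52 and 0.35. The peak at the end of Mup2 had 4, 17 and 10 counts in confined libraries, against 12, 18 and 12 in unconfined libraries, and that in Vmn2r55 had 3, 6 and 10, against 7, 14 and 10.

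Some members with many counts pointed the other way. The peak 5.26 kb from Olfr750 (chr14:51064700-51065399) lay 118.5 bases from the transfer RNA gene n-TTtgt3 and had 12, 9 and 1 counts in confined libraries, against 25, 81 and 49 in unconfined libraries, or levels of 1.50, 1.73 and 0.33 against 3.50, 2.81 and 2.12. All confined libraries were below all unconfined ones. At chrX:50602437-50603136, in the Olfr1324 group, the counts were 10, 0 and 1 in confined libraries, against 21, 56 and 60 in unconfined libraries. The Olfr1324 peak at chrX:50611792-50612491 had 8, 4 and 4 counts in confined libraries, against 14, 60 and 47 in unconfined libraries. Its confined levels were 1.00, 0.77 and 1.33, against unconfined levels of 1.96, 2.08 and 2.04. Another Olfr1324 peak with many counts, at chrX:50572360-50573059, did not point clearly either way. It had 6, 12 and 5 counts in confined libraries, against 11, 40 and 36 in unconfined libraries. Its confined levels of 0.75, 2.31 and 1.66 overlapped the unconfined levels of 1.54, 1.39 and 1.56. The Olfr750 peak and these 3 have another gene closer to them when non-coding genes are included, and all 4 had more counts in unconfined library 1 than in confined library 1 at similar totals.

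**Figure D3:**
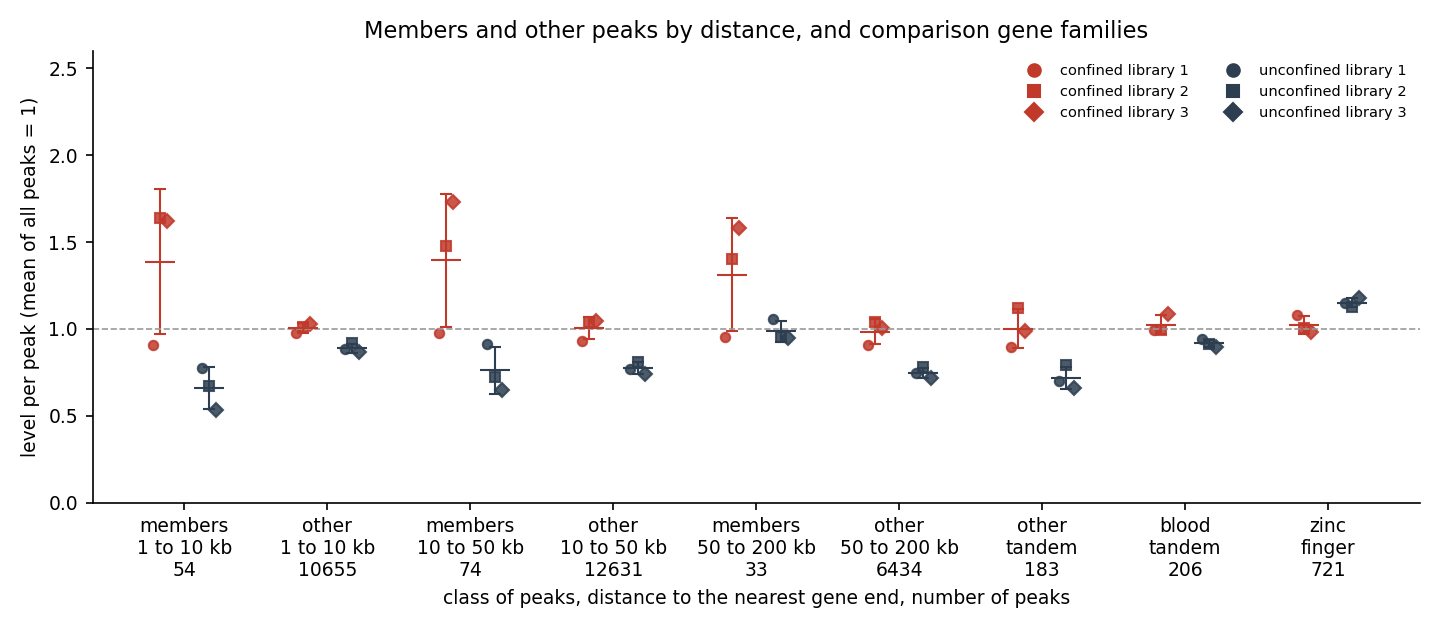
Level per peak (mean of all peaks = 1) of the members and of other peaks at the same distance from a gene end, and of 3 comparison gene groups, with 1 point per library, the mean and 1 SD (n = 3 each), confined left of unconfined. From 1 to 200 kb, confined libraries 2 and 3 reach 1.40 to 1.73 at members and 1.01 to 1.04 at other peaks of the same distance.

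Peaks of other genes at the same distances served as the comparison. Within 1 kb, the 13 members were at 0.90, 1.24 and 1.30 in confined libraries 1 to 3 and at 0.83, 0.75 and 0.59 in unconfined libraries, while the other peaks of that distance, given above, were lower in every confined library than in every unconfined one. At 1 to 10 kb, members were at 0.91, 1.64 and 1.62 in confined libraries 1 to 3 and at 0.78, 0.67 and 0.54 in unconfined libraries, while the 10655 other peaks were at 0.98, 1.01 and 1.03 in confined libraries and at 0.88, 0.92 and 0.87 in unconfined libraries. At 10 to 50 kb, members were at 0.98, 1.48 and 1.73 in confined libraries and at 0.91, 0.73 and 0.65 in unconfined libraries, while the 12631 others were at 0.93, 1.04 and 1.04 in confined libraries and at 0.77, 0.81 and 0.74 in unconfined libraries. At 50 to 200 kb, members were at 0.95, 1.40 and 1.58 in confined libraries and at 1.06, 0.96 and 0.95 in unconfined libraries, while the 6434 others were at 0.91, 1.04 and 1.01 in confined libraries and at 0.74, 0.78 and 0.72 in unconfined libraries. Other peaks away from gene ends thus also had higher levels in each confined library than in each unconfined library, but near 1. The 183 peaks at other tandem families, among them Cyp2, Cyp4, Serpinb and Ces genes, were at 0.90, 1.12 and 0.99 in confined libraries and at 0.70, 0.79 and 0.66 in unconfined libraries. These families were chosen by symbol alone, and whether their genes are used in blood was not checked. Single families among them had gaps as large as some of the 7 families described here. The ratio of the confined to the unconfined mean level was 2.23 at 8 Serpina peaks, 1.88 at 13 Wfdc peaks and 1.84 at 8 Defb peaks, with no overlap between the groups, beside 2.10 at Vmn2r and 2.14 at Mup peaks. It was 1.15 at Cyp2 peaks and 0.82 at Ifna peaks. The 206 peaks at tandem families with members used in blood, such as Gimap and Ms4a, were at 0.99, 0.99 and 1.09 in confined libraries and at 0.94, 0.91 and 0.90 in unconfined libraries. The 721 peaks at zinc finger protein genes were at 1.08, 1.01 and 0.98 in confined libraries and at 1.15, 1.12 and 1.18 in unconfined libraries, the opposite direction in all 3 batches.

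Places were then set beside the likeness of their copies, which the choice of families did not use. For each family gene of a place with a promoter window, the identity to its closest copy in the same place was taken by global alignment. The median was 99.0% in the Vmn1r row on chromosome 7, where all 22 windows were at least 90% identical to another. It was 96.7% in the 6-peak Vmn2r place on chromosome 17, 94.7% in the Pramel place on chromosome 5, 91.7% in the Mup place and 90.7% in the Vmn2r place on chromosome 6. It was 85.9% in the smaller Vmn2r place on chromosome 17, 77.6% in the Vmn1r place on chromosome 6, 76.8% in the Pramel place on chromosome 4, and 50.4% to 76.2% in the 6 Olfr places with at least 2 windows.

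Over these 14 places, the ratio of the confined to the unconfined mean level had a Spearman correlation of 0.78 with identity. This is a description over 14 places that share the same 6 libraries. The families were chosen on the contrast in this ratio, and the places were drawn after its values were seen. Nothing is therefore read from the correlation. In the 5 places at 90% or more, with 64 peaks, the ratio was between 1.80 and 3.21, and in the 9 places below it was between 0.84 and 1.80. The ranges meet at 1.80, the value of the Vmn2r place on chromosome 6 and of an Olfr place on chromosome 17 with 76.2% identity. The other 4 places above 90% had the 4 highest ratios of the 14. The likeness was not always that of the genes with peaks, however. In the Pramel place on chromosome 5, Pramel40 and Pramel45, nearest to 7 of the 17 peaks, were 51.5% identical to their closest copy, Pramel44 and Pramel47, nearest to 9, had no window, and 1 peak was nearest to a gene above 90%. In the Vmn2r place on chromosome 6, 3 of 4 peaks were nearest to Vmn2r27, at 76.6%. In the Vmn1r place on chromosome 7 and the larger Vmn2r place on chromosome 17, every peak was nearest to a gene at 90% or more, as were 13 of 19 Mup peaks. The comparison with identity and its 90% line were not part of the initial plan. Over genes with a peak only, a choice also made after seeing the data, the correlation over the 14 places was 0.54. The ratio was 2.94 at the Pramel genes of chromosome 5 and 1.05 at those of chromosome 4, and 2.29 at the Vmn1r genes of chromosome 7 and 1.16 at those of chromosome 6. Identity was read at promoter windows and not at the peaks, whose own sequence was not analysed here, and how reads with several matches were counted was not given in the sources available. The part of copy identity in the group difference was not tested.

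**Figure D4:**
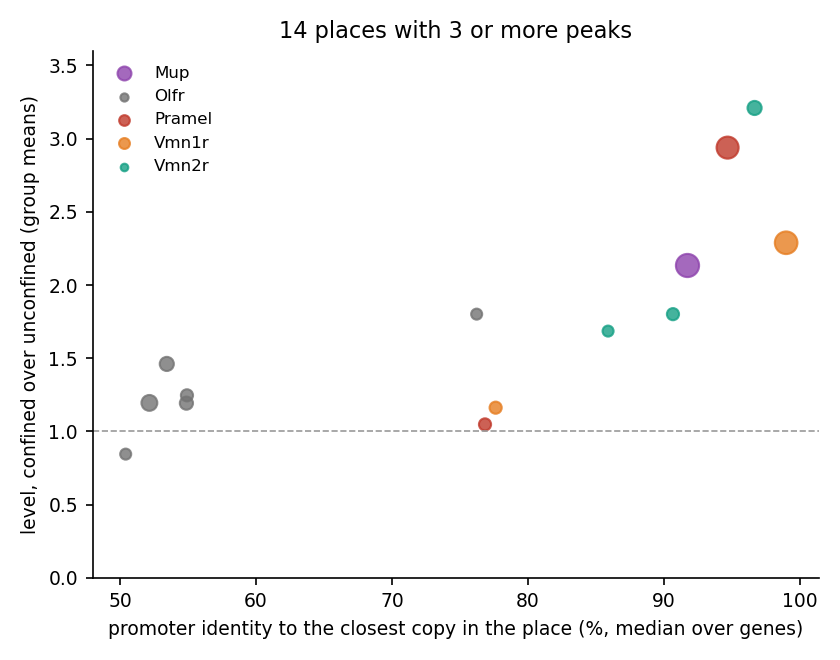
Ratio of the mean level in confined libraries to that in unconfined libraries (vertical axis) against the median identity of promoter windows to their closest copy (horizontal axis), for 14 places, with area growing with the number of peaks. The 5 places at 90% identity or more lie between 1.80 and 3.21, and the 9 below between 0.84 and 1.80; identity is over all genes of a place with a window, with or without a peak.

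Shared words were also counted among the promoter windows of protein-coding genes on all chromosomes, and not in the rest of the genome. A promoter window was counted as shared when it held a word of 50 bases also found in the window of another gene, on either strand. This was so for 87.5% of Mup windows, 70.0% of Speer, 64.1% of Vmn2r, 63.2% of Pramel and 54.9% of Vmn1r windows, against 18.2% of Skint and 13.6% of Olfr windows and 16.3% of all 17492 protein-coding windows. The homeodomain core TAATTA was in 18.6% of Olfr, 18.2% of Skint, 17.1% of Vmn2r, 13.2% of Pramel and 7.28% of Vmn1r windows and in 0 of the Mup and Speer windows, against 4.69% of all windows, counting both strands. TATAAA was in 63.6% of Skint, 42.2% of Vmn1r, 41.1% of Olfr, 34.2% of Pramel, 23.1% of Vmn2r and 12.5% of Mup windows and in 0 of the Speer windows, against 13.3% of all. The site of the Olf/Ebf factors, searched as TCCC, any pair of bases and GGGA, was in 5 of 944 Olfr windows (0.53%) and in 0 windows of the other 6 families, against 0.92% of all. CG dinucleotides were few, with a median of 1 per Olfr window against 13 per window over all genes. Matches are letters and not sites of binding, and 3 of the members overlap such a window.

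Some peaks of the Vmn1r row lay at like distances from different copies, and others did not. Upstream of the start, midpoints lay at -10.928 kb from Vmn1r100, -10.830 kb from Vmn1r93, -10.820 kb from Vmn1r107, -10.730 kb from Vmn1r103 and -10.226 kb from Vmn1r94. Those of Vmn1r93 and Vmn1r241 lay at -11.922 and -11.960 kb. Downstream, peaks lay at 5.720 kb from Vmn1r241 and 5.824 kb from Vmn1r245, and at 6.740 kb from Vmn1r244 and 7.070 kb from Vmn1r101. The remaining peaks lay at -19.218 and -9.254 kb from Vmn1r244, at -5.702, -3.752, -3.04 and 46.626 kb from Vmn1r243, and at 12.372 kb from Vmn1r111. Of the 18 peaks, 5 therefore lay between -10.928 and -10.226 kb from the start of 5 different genes, which are on both strands. These bounds were taken from the distances themselves, and no other place was compared. None of these peaks overlaps a promoter window, and whether their own sequences are alike was not analysed here.

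**Figure D5:**
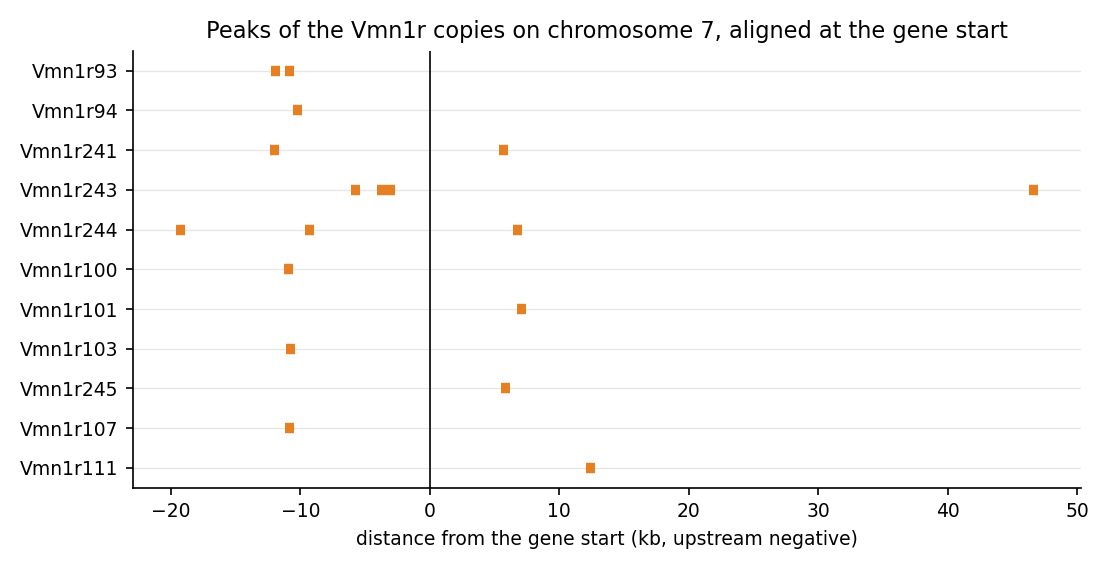
Distance of each peak's midpoint from the gene start (kb, negative upstream) for the 18 peaks of the Vmn1r copies on chromosome 7, with 1 row per gene. There are 5 genes with a peak at -10.928 to -10.226 kb and 4 with a peak 5.720 to 7.070 kb downstream.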

How the data were processed

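The authors deposited raw counts per peak for 6 ATAC-seq libraries and the coordinates of 42632 peaks, each 700 bases wide. The submitters' processing notes name featureCounts, SAMtools 1.14, R 4.2.0 and mm10. Aligner, peak caller, and the treatment of duplicates and of reads with several matches were not given in the sources used here. Each midpoint was assigned to the nearest end of a RefSeq protein-coding gene (GRCm38.p6) within 200 kb. The annotation lists gene bounds without exons, so exonic position was not analysed here. No symbol began with Or and a digit.

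All peaks were fitted with edgeR 4.0.16 (R 4.3.3; filterByExpr, TMM, glmQLFit, glmQLFTest, Benjamini-Hochberg adjustment), tested on simulated data. DESeq2 1.42.0, other scalings, no filter, left-out libraries and a batch block were alternatives. Levels are ratios within a library. A floor of 3 counts is 8.80, 13.6 and 23.4 CPM in confined libraries 1 to 3, and 9.84, 2.44 and 3.05 CPM in unconfined libraries 1 to 3. Promoter windows were aligned with Biopython 1.88.

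Members and lists were chosen with earlier results of these data known. Named peaks were the 3 highest per family by mean CPM, the 10 called members with the smallest p, the 10 nearest gene ends and the 3 on each side of the distance limit; 1 chromosome X peak was added after its values were seen. The labels number experimental batches 1 to 3 in both groups, and the pairing comes from there. Deviations of same-numbered libraries correlated at r = 0.0437, 0.0597 and -0.0470, and those of other pairs at -0.160 to 0.101, so pairing was not visible in the counts.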

Additional observations from a re-analysis of the deposited data

How the results depend on the processing

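Member calls higher in confined cells were 25, and 21 to 26 with other scalings, no filter, DESeq2 or the block, 23 under the replicate block; with 1 library left out they ranged from 10 to 55. Member calls lower were 0, but 1 with total counts only and 1 without the filter, the chromosome X peak with 10, 0 and 1 confined counts and 21, 56 and 60 unconfined counts, and 0 to 1 with 1 library left out. Over all peaks, 526 were called higher and 220 lower. Total counts only gave 348 and 2286, no filter gave 1821 lower, DESeq2 gave 77 lower and the replicate block 74 lower. With 1 library left out, calls ranged from 250 to 1696 higher and from 76 to 788 lower. The difference in member share of counts, 0.240 points, was 0.471 points over tested peaks only, 0.184 to 0.324 with 1 library left out, and 0.0715 with confined library 1 alone, an alternative chosen after seeing the data. With that library alone the difference in level was 0.0967 at Mup, 0.0480 at Olfr, 0.286 at Pramel, 0.435 at Speer and 0.360 at Vmn1r peaks. The Skint peak reversed, from -0.10 to 0.0135 without confined library 3 and 0.0456 without unconfined library 3, with a range of -0.232 to 0.0456. For each of these shifts the cause was not tested. With 4 to 7 counts at the median confined member, depth limits every statement on a single peak.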
